A study of Mus musculus with 14 samples.

Results

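Megakaryocyte-rich spots of mouse fetal liver were examined in 2 sections profiled with Visium, in which tissue lies on an array of barcoded spots that each capture RNA from several cells. The spots were chosen by the share of their unique molecular identifiers (UMIs, counted RNA molecules) that came from Pf4, Ppbp, Itga2b, Gp1bb and Gp9. Within each section the 10% of spots with the highest share were the rich spots, and the 50% with the lowest share were the comparison spots. Of 491 spots under tissue in the E13.5 liver 49 were rich, and of 854 in the E14.5 liver 85 were rich, which gave 134 rich spots among 1345. The whole series held 15985 spots with at least 1000 genes in 14 sections of fetal liver, bone marrow and spleen.

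Both livers came from untreated wild type embryos of mice bought from Jackson laboratory, 1 at E13.5 and 1 at E14.5. Each stage was thus a single section, so the contrast of spots within it has no replicate check. The same choice of spots was then made in 4 other E14.5 fetal livers from crosses of C1qa heterozygous parents, 2 wild type (wild type 2 and wild type 4) and 2 C1qa knockout (knockout 2 and knockout 4). C1qa encodes a chain of the complement protein C1q, made in this tissue by macrophages. The numbers 2 and 4 mark litters, and all 6 livers were fixed in formalin and embedded in paraffin. C1qa had 1906 and 461 UMIs in the liver spots of the wild type sections and 1 UMI in each knockout section, so the genotype labels held.

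Megakaryocytes are large polyploid cells that shed platelets, and the fetal liver makes them while it is the main site of blood formation. They arise beside the erythroid lineage, with which they share a progenitor and several transcription factors, and mature under the hormone thrombopoietin. Their maturation loads alpha granules with chemokines and adhesive proteins, builds the glycoprotein receptors that bind collagen, fibrinogen and von Willebrand factor, and assembles the tubulin and myosin machinery of proplatelets. Pf4 and Ppbp are alpha-granule chemokines, Itga2b is the alpha chain of the fibrinogen receptor, and Gp1bb and Gp9 are chains of the von Willebrand factor receptor.

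The 250 bases before the annotated start are shown for 4 of these genes because they define every comparison that follows, from RefSeq with build GRCm38.p6. They lie at chr5:90772185-90772434 on the plus strand for Pf4, chr5:90768268-90768517 on the plus strand for Ppbp, chr11:102469884-102470133 on the minus strand for Itga2b and chr16:18622404-18622653 on the minus strand for Gp1bb. Capitals mark matches on either strand to the ETS words AGGAAG and CGGAAG.
Pf4: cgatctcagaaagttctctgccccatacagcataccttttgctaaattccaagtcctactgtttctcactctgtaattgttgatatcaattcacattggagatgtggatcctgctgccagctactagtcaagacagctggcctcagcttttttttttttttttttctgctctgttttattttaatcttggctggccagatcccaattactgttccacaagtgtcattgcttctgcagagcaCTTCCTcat
Ppbp: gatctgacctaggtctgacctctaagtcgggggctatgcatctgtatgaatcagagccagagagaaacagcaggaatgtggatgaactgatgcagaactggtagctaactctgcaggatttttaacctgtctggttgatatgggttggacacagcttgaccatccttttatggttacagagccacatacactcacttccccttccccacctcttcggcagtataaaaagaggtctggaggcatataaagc
Itga2b: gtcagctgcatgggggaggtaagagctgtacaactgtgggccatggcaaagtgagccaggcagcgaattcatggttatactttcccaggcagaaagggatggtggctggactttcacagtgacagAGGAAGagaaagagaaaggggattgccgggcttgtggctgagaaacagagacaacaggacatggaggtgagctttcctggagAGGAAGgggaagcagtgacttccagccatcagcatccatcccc
Gp1bb: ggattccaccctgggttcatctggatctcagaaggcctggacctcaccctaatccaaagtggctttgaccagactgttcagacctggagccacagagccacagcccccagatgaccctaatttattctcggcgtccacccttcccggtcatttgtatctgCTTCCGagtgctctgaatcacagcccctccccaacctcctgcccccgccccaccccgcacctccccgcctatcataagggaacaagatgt
Pf4, Gp1bb and Gp9 each held 1 ETS match in this window, Itga2b held 2 and Ppbp held 0. The GATA words AGATAA and TGATAA had 0 matches in any of the 5. Of all 32851 promoter windows of this length 39.2% held an ETS word and 16.6% a GATA word, so such matches are common. Among 221 windows of the 167 matched genes that were higher in rich spots of both livers, 51.1% held an ETS word and 16.3% a GATA word, against 47.0% and 9.18% in the 9706 windows of the genes compared.

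The choice of spots set the levels of the 5 genes, which are given here as a description. In the E13.5 liver the share ran from 0.179% to 0.538% in rich spots with a median of 0.252%, and the first spot outside stood at 0.176%. In the E14.5 liver it ran from 0.142% to 0.558% with a median of 0.192%, and the first spot outside also stood at 0.142%. The comparison spots had medians of 0.0276% and 0.0389%. The shares ran on without a gap at the boundary, so the rich spots were the upper end of a continuous range. A rich spot carried between 79 and 378 UMIs of the 5 genes in the E13.5 liver and between 24 and 583 in the E14.5 liver. Rich spots held 34.4% of the 5 genes' UMIs and 10.4% of all UMIs in the E13.5 liver, and 35.3% and 12.9% in the E14.5 liver. One of the 854 E14.5 spots, and none of the 491 E13.5 spots, had 0 UMIs of the 5 genes.

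**Figure D1:**
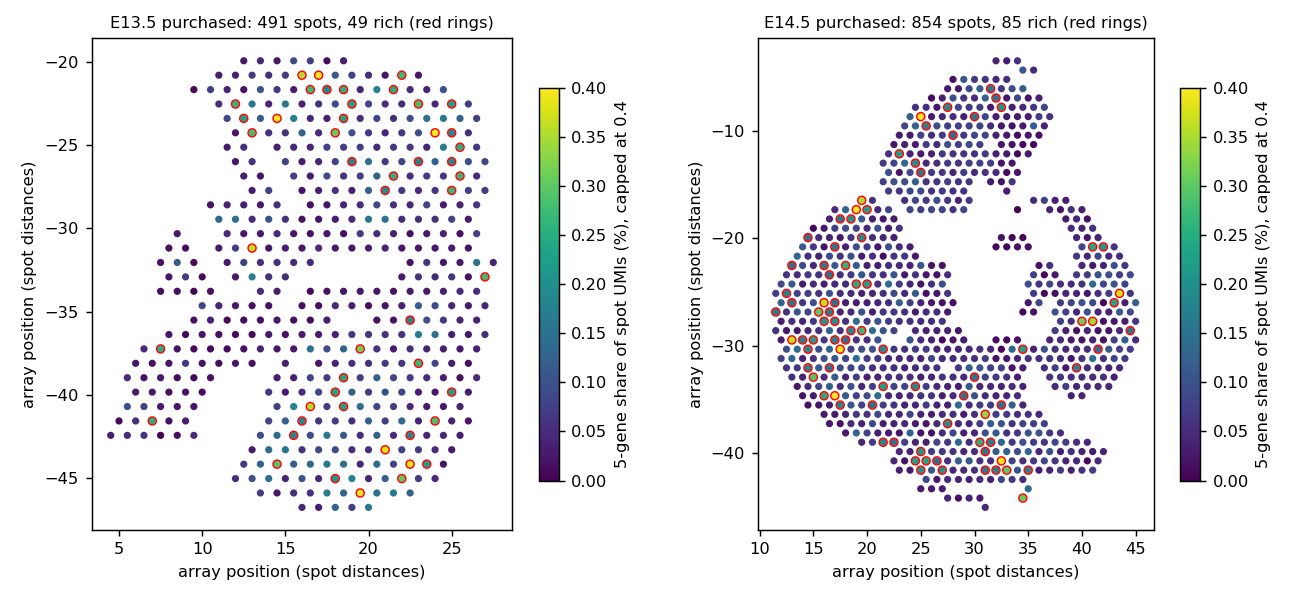
Spots under tissue in the E13.5 and E14.5 purchased livers at their array positions in spot distances, coloured by the 5-gene share of spot UMIs in percent, with rich spots ringed in red. The 49 and 85 rich spots lay singly and in small groups. In the E13.5 liver few of them lay in the middle array rows.

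Pf4 made up 67.0% of the 5 genes' UMIs in the E13.5 liver and 66.7% in the E14.5 liver, so it weighed most in the choice. Its level, in counts per 1000000 UMIs (CPM) of the summed spots, was 1770 in rich and 192 in comparison spots at E13.5, and 1475 and 242 at E14.5. Ppbp stood at 452 against 40.3 CPM and at 368 against 54.3 CPM. Itga2b, at 220 against 28.9 CPM and 162 against 32.4 CPM, and Gp9, at 176 against 33.1 CPM and 146 against 44.9 CPM, gave fewer UMIs. Gp1bb gave the fewest of the 5, at 16.6 against 1.54 CPM and 26.5 against 2.99 CPM, and was seen in 38 of 49 and 66 of 85 rich spots.

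To read each of the 5 genes apart from its own part in the choice, spots were also ranked by the other 4. Gp1bb was then 10.5-fold higher in rich spots at E13.5 (95% counting interval 6.67 to 16.8) and 8.39-fold at E14.5. Ppbp was 10.3-fold and 6.19-fold higher, Pf4 7.52-fold and 4.93-fold, Itga2b 7.22-fold and 4.62-fold, and Gp9 4.88-fold and 3.02-fold. Each of the 5 thus followed the other 4 in both sections, which is a description, since all 5 were picked as megakaryocyte genes. The ratio was smaller at E14.5 for every gene, beside a lower boundary share in the choice by all 5 (0.142% against 0.179%). Counting intervals here and below cover counting error only.

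Spots at each end of the range held hepatocyte RNA, but this share could not show that a spot was liver. Off tissue the same genes took 2.00% of UMIs at E13.5 and 2.97% at E14.5. Under tissue the summed share of 15 hepatocyte genes had a median of 1.90% in rich and 2.20% in comparison spots at E13.5. At E14.5 the medians were 3.11% and 3.16%, and no spot fell under 0.644% and 1.25%. Depth differed between the classes. A rich spot had a median of 79987 UMIs and a comparison spot 69925 at E13.5, and 85291 and 59291 at E14.5, with 3975353 to 27062746 UMIs in the summed classes. Ranking spots within 5 strata of UMIs left 24 genes lower in both livers in place of the 53 reported below. RNA was also counted off tissue, where the 5 genes took 0.0728% and 0.0630% of UMIs, close to the 0.0795% and 0.0796% under tissue, and the part of RNA that spread between spots was not tested. In a bulk of several cells, more megakaryocytes in a spot and more RNA per megakaryocyte cannot be told apart.

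After the 5 genes were left out of sums and totals, 9424 genes had at least 5 CPM over the spots of each liver and were compared. A gene was called higher or lower where its CPM differed at least 1.5-fold between rich and comparison spots. In the E13.5 liver 255 genes (2.71%) were higher and 352 (3.74%) lower, and in the E14.5 liver 242 (2.57%) were higher and 96 (1.02%) lower. Both livers shared 201 higher genes (2.13%) and 53 lower genes (0.562%), and 0 genes went opposite ways. The 201 were 78.8% of the E13.5 and 83.1% of the E14.5 higher genes, whereas the 53 were 15.1% and 55.2% of the lower genes. The median gene had a log2 ratio of -0.03 and -0.02. These contrasts share spots with the choice, so they describe what the rich spots contained and carry no test.

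Of the 201 genes higher in both livers, 46 belonged to 5 lists of megakaryocyte and platelet genes with 61 members, 55 of which passed the minimum of 5 CPM. Those 55 had median log2 ratios of 1.38 and 1.29. The ratio of rich to comparison spots was larger at E13.5 than at E14.5 for 132 of the 201, beside a higher boundary share at E13.5. Raising the minimum to 20 CPM left 84 higher genes, and requiring only 1 count in each class gave 465, so the count depends on the minimum.

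**Figure D2:**
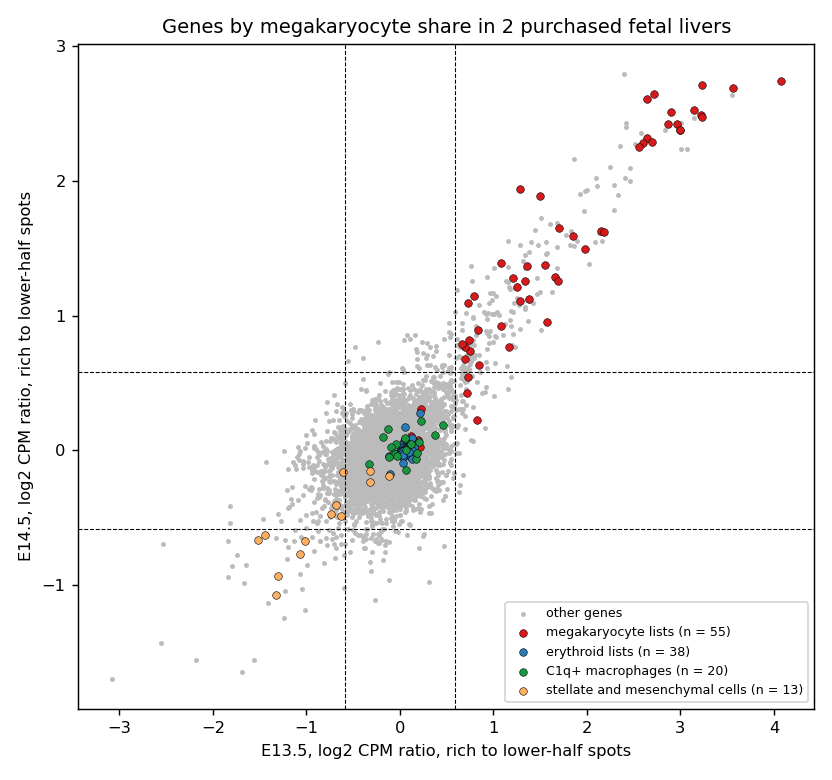
Log2 CPM ratio of rich to comparison (lower-half) spots for each of 9424 genes in the E13.5 liver (horizontal) and the E14.5 liver (vertical), with dashed lines at 1.5-fold and members of lineage lists coloured. The megakaryocyte lists reach log2 ratios of 4.07 and 2.74 (Mpig6b), the erythroid and C1q+ macrophage lists stay between the dashed lines, and the stellate list lies below 0.

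Platelet adhesion receptors came first, and all 8 of the list's members that passed the minimum were higher in rich spots of both livers. Itgb3, the beta chain that pairs with Itga2b in the fibrinogen receptor, stood at 256.2 CPM in rich and 27.3 CPM in comparison spots at E13.5, a 9.40-fold difference, and at 230.1 and 41.5 CPM at E14.5, a 5.55-fold difference. Over the summed classes of all 6 livers, its lowest rich level exceeded its highest comparison level. Single spots were not compared so, and the share of all genes that separated in this way was not counted. The cross livers had 240.7, 367.0, 304.6 and 570.4 CPM in rich spots against 25.2, 44.1, 30.2 and 71.3 CPM (wild type 2, wild type 4, knockout 2 and knockout 4). Gp6, the collagen receptor that signals through immunoreceptor motifs, was 11.8-fold and 6.45-fold higher. Gp1ba and Gp5, the chains that complete the von Willebrand factor receptor around Gp1bb and Gp9, were 8.81-fold and 5.76-fold, and 7.48-fold and 5.71-fold higher. Clec1b, the podoplanin receptor, was 4.44-fold and 3.09-fold higher. The laminin-binding integrin chain Itga6 (2.53-fold and 2.39-fold), the tetraspanin Cd9 (3.22-fold and 2.39-fold) and Pear1 (1.62-fold and 1.70-fold) differed less, and each is also made by other cells.

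The granule list held 10 genes above the minimum, 9 of them higher in both livers. Thbs1, the adhesive alpha-granule protein thrombospondin, gave the most UMIs of the list, at 904.7 against 113.5 CPM at E13.5 and 721.3 against 138.7 CPM at E14.5. Rich spots of the cross livers had 896.7, 1030.3, 802.2 and 1128.8 CPM of Thbs1 against 116.3, 153.0, 107.2 and 176.8 CPM. The summed rich and comparison classes of the 6 livers did not overlap, but the share of all genes that separated so was not counted. Treml1, an alpha-granule membrane receptor, was 7.96-fold and 5.20-fold higher, Mmrn1 (multimerin, which binds factor V in the granule) 6.24-fold and 6.09-fold, and Vwf 5.87-fold and 4.77-fold. Nrgn, a calmodulin-binding protein, was 4.52-fold and 3.07-fold higher and Serpine2 (protease nexin) 2.44-fold and 3.83-fold. F5, Clu and F13a1, which encode coagulation factor V, clusterin and the factor XIII A chain, were between 1.70-fold and 2.24-fold higher. Srgn, the core protein of granule proteoglycans, stood at 1.66-fold at E13.5 and 1.46-fold at E14.5, short of the limit in the second liver.

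All 10 cytoskeletal genes were higher in both livers. Tubb1, the beta-tubulin of platelet microtubules, was 7.82-fold and 5.37-fold higher, at 175 against 22.4 CPM and 142 against 26.4 CPM. Tuba8 and Bin2 were 3.62-fold and 3.02-fold, and 3.24-fold and 3.13-fold higher. Among the actin and myosin genes, Myl9, a regulatory myosin light chain, was 2.82-fold and 3.70-fold higher and Mylk, its kinase, 2.97-fold and 1.93-fold. The broadly used genes Flna (filamin), Tln1 (talin) and Actn1 (actinin) were between 1.58-fold and 2.21-fold higher. Cavin2 and Parvb stood between, at 2.56-fold and 2.58-fold, and 2.61-fold and 2.17-fold.

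Of 18 signalling genes 17 were higher in both livers. The inhibitory receptor Mpig6b had the largest ratio at E13.5, 16.9-fold, and 6.68-fold at E14.5, from 1.65 and 2.55 CPM in comparison spots. Of the receptors for soluble agonists, the thrombin receptor F2rl2 was 9.36-fold and 6.57-fold higher, the ATP channel P2rx1 6.23-fold and 4.98-fold and the ADP receptor P2ry1 3.95-fold and 2.82-fold. The thrombin receptor F2r (1.67-fold and 1.77-fold) and the thromboxane receptor Tbxa2r (2.12-fold and 2.62-fold) differed less.

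Behind the receptors, the adaptor Lat was 6.56-fold and 6.27-fold higher and the protein kinase C substrate Plek 6.49-fold and 4.88-fold. Enzymes of the eicosanoid pathways ranked apart: the lipoxygenase Alox12 was 9.34-fold and 5.61-fold higher, the thromboxane synthase Tbxas1 3.16-fold and 2.44-fold and the cyclooxygenase Ptgs1 1.79-fold and 1.55-fold. Rab27b, a GTPase of granule transport, was 7.28-fold and 5.38-fold higher. Rap1b, the GTPase that activates the fibrinogen receptor, stood at 881 and 817 CPM in rich spots, 2.38-fold and 2.32-fold higher, and Rasgrp2, its exchange factor, 2.92-fold and 2.60-fold. Gng11 (2.32-fold and 2.43-fold) and the phosphatase Ptpn11 (1.62-fold and 1.60-fold) were higher as well. Jak2, a kinase of cytokine receptors, was 1.17-fold and 1.24-fold higher, under the limit.

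The transcription factors stood apart from the other 4 lists, with 2 of 9 genes past the limit in both livers. Fli1, an ETS factor of the megakaryocyte branch, stood at 51.5 against 21.2 CPM at E13.5 and 53.4 against 24.8 CPM at E14.5, which is 2.43-fold and 2.15-fold. Mef2c was 1.66-fold and 2.13-fold higher. Runx1 (1.78-fold and 1.17-fold) and Etv6 (1.65-fold and 1.34-fold) passed in the E13.5 liver alone. Gata1, the GATA factor that megakaryocytes share with erythroid cells, differed little, at 277 against 252 CPM and 301 against 287 CPM. Nfe2, Gfi1b, Tal1 and Zfpm1, also shared with the erythroid lineage, had ratios between 1.02-fold and 1.16-fold.

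Among the 15 genes with the largest ratio in their weaker section, 4 were outside the 5 lists. Ly6g6f was 11.7-fold and 6.24-fold higher, the exchanger gene Slc24a5 8.83-fold and 5.54-fold, the transporter gene Slc35d3, needed for platelet dense granules, 8.04-fold and 5.39-fold, and the potassium channel gene Kcna3 5.35-fold and 5.39-fold. Of 34 genes at least 4-fold higher in both livers, 17 were in the lists.

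Detection in single spots followed the sums. Gp1ba had a UMI in 46 of 49 rich and 107 of 245 comparison spots at E13.5, and in 81 of 85 and 189 of 427 at E14.5. Thbs1 had one in every rich spot and in 243 of 245 and 419 of 427 comparison spots, at medians of 66 against 7 UMIs and 57 against 8 UMIs per spot. The 61 list genes together took 0.691% of UMIs in the median rich spot (0.483% to 1.08%) and 0.284% in the median comparison spot (0.196% to 0.429%) of the E13.5 liver. All 49 rich spots lay above the highest comparison spot. In the E14.5 liver the medians were 0.597% (0.405% to 1.36%) and 0.309% (0.194% to 0.485%), and 78 of 85 rich spots lay above the highest comparison spot. Off tissue the same genes took 0.361% and 0.354% of UMIs, more than in the median comparison spot, so a UMI there does not show expression. These spots are not replicates and share their section.

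**Figure D3:**
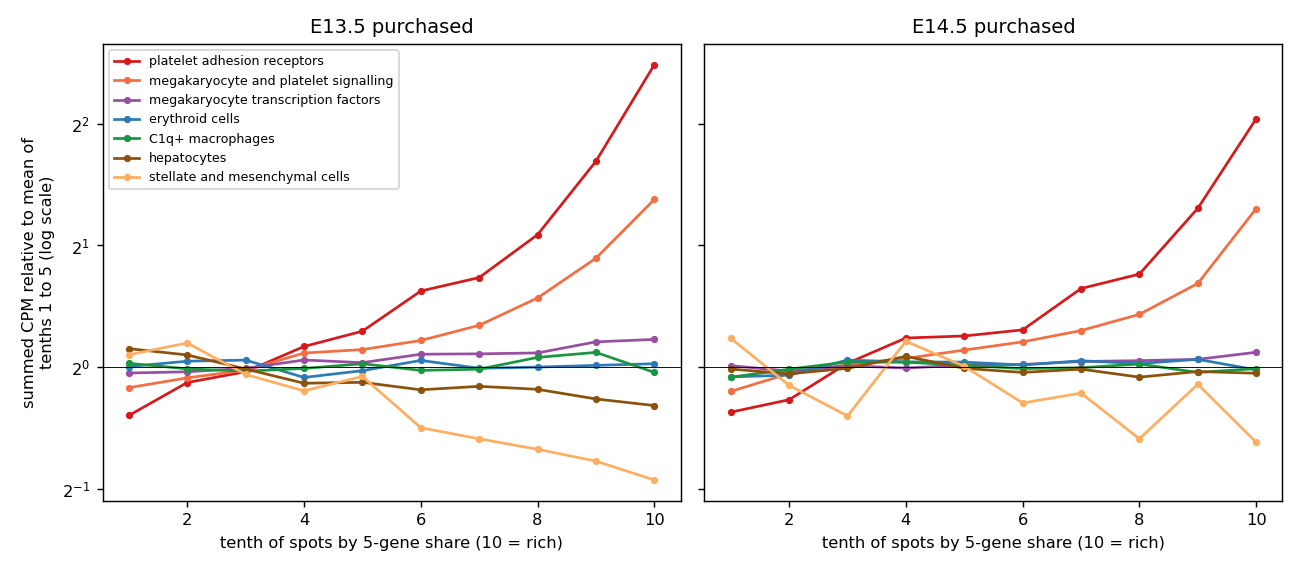
Summed CPM of 7 lineage lists in 10 equal bins of spots ranked on the 5-gene share (bin 10 = rich spots), relative to the mean of bins 1 to 5, on a log scale, in the E13.5 and E14.5 purchased livers. The platelet adhesion receptors climb from bin to bin to log2 ratios of 2.49 and 2.03 in the rich spots, while the erythroid and C1q+ macrophage lists stay near 1.

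The neighbouring lineages were read by lists of their genes. Over all 9424 genes 2.13% were higher and 0.562% lower in both livers. A count of 0 in a short list thus does not set it apart from other genes. None of 20 erythroid progenitor genes and none of 18 erythroid genes passed 1.5-fold in both livers. The summed erythroid list, which holds alpha and beta globins, heme enzymes and red cell membrane genes, had log2 ratios of 0.03 and -0.03, and the progenitor list 0.06 and 0.00. Slc4a1, the red cell anion exchanger, stood at 706 against 646 CPM and at 696 against 695 CPM. None of 17 cell cycle genes passed, with summed log2 ratios of 0.01 and -0.01.

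None of 20 genes of C1q+ macrophages passed, and their summed log2 ratios were -0.04 and -0.02. Cd5l, a secreted macrophage protein, stood at 109 against 83.9 CPM at E13.5 and 140 against 130 CPM at E14.5. Of 18 genes listed for other macrophages 3 were higher in both livers. They were Tmsb4x (thymosin, which binds actin monomers) at log2 ratios of 0.82 and 0.91, Coro1a (coronin, an actin regulator) at 0.82 and 0.86, and F13a1, which is also in the granule list. The other 15 members of that list were not higher in both. Its summed log2 ratios were 0.43 and 0.59, with 47 of 49 and 83 of 85 rich spots above the median spot of their section. The median of its 18 genes was -0.13 and 0.10, so the sum does not stand for the typical member.

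Granulocyte lists had different ratios in the 2 livers. Myeloid primary granule genes had a summed log2 ratio of -0.37 at E13.5 and 0.29 at E14.5, and neutrophil genes -0.85 and -0.03. S100a8 and S100a9, the calprotectin subunits, stood at 72.4 against 137 CPM and 131 against 244 CPM at E13.5, and at 168 against 164 CPM and 226 against 224 CPM at E14.5. The difference between stages was not tested, since each stage was 1 section. Hepatocyte genes had summed log2 ratios of -0.31 and -0.05, with Hnf4a, a hepatocyte transcription factor, at -0.42 and -0.30 and 0 of 15 genes past the limit in both.

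Of 11 stem and early progenitor genes 2 were higher in both livers, beside 2.13% of all genes. Angpt1, a Tie2 ligand that megakaryocytes and stem cells are known to make, stood at 16.9 against 4.28 CPM and 17.3 against 4.55 CPM, and Esam, an adhesion molecule of stem cells, platelets and endothelium, had log2 ratios of 0.78 and 0.82. Among 9 genes listed as factors that support megakaryocytes or that they release, Pdgfb (log2 ratios 1.87 and 2.17), Tgfb1 (0.93 and 0.87) and Angpt1 were higher. Pdgfb stood at 16.4 against 4.50 CPM and 20.9 against 4.66 CPM, and Tgfb1 at 308 against 162 CPM and 296 against 162 CPM. Cxcl12, the chemokine that draws megakaryocytes to vessels, had log2 ratios of -0.68 and -0.40.

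Of 15 sinusoidal and vascular endothelial genes Clec4g alone was higher in both livers, at 7.82 against 4.44 CPM and 10.2 against 4.62 CPM, and the summed list had log2 ratios of -0.09 and -0.10. Of 6 smooth muscle and large vessel genes, Vwf and Mylk, both also in the megakaryocyte lists, were higher and Eln was lower. Mast cell, B-lineage and mesothelial lists kept 2, 1 and 1 genes above the minimum, of which 0 passed the limit.

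Genes of stellate and mesenchymal cells were lower in rich spots, beside 0.562% of all genes lower in both livers. Of 13 genes 6 passed in both livers, namely Hand2, Pdgfra, Pdgfrb, Col3a1, Col1a2 and Col1a1, and the summed list had log2 ratios of -0.93 and -0.61. Col1a1, a chain of type I collagen, stood at 101 CPM in rich and 253 CPM in comparison spots at E13.5 and at 58.4 and 123 CPM at E14.5. The 10 genes with the lowest ratios were Mfap4, Eln, Ptn, Fat4, Fbln2, Col6a3, Fbn2, Col1a1, Fbn1 and Gdf10, mostly genes of the extracellular matrix. The growth factor Ptn had log2 ratios of -2.18 and -1.55 and the elastic fibre genes Mfap4 and Eln -3.08 and -1.69, and -1.69 and -1.65.

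Rich and comparison spots differed in their place in the section. In the E13.5 liver few rich spots lay in the middle array rows, where comparison spots were common. Edge spots, which had fewer than 6 neighbours under tissue, were 10.2% of rich and 48.6% of comparison spots at E13.5 and 16.5% and 36.3% at E14.5. Without edge spots 21 genes were lower in both livers in place of 53, while 239 were higher in place of 201. The stellate list then had log2 ratios of -0.52 and -0.51, Col1a1 -0.79 and -0.99, and Eln -0.97 and -1.11, each less far from 0 in both livers. Mfap4 had -2.89 and -1.83 and Fat4 -1.16 and -1.95, farther from 0 than with edge spots at E14.5. The 16 genes of non-liver embryo tissue summed to 1.26 against 9.16 CPM at E13.5, with none at 0, and to 1.80 against 2.48 CPM at E14.5, with 5 at 0. The part of such tissue and of the edge in the lower genes was not tested further.

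Rich spots lay near each other somewhat more than their share of the section. Of 287 places next to a rich spot at E13.5, 48 (16.7%) held another rich spot, and of 485 at E14.5, 102 (21.0%) did, where rich spots were 9.98% and 9.95% of all spots. The shares of 9.98% and 9.95% count edge spots, of which 5 of 175 were rich at E13.5 and 14 of 262 at E14.5. A share without edge spots was not set beside these values. Rich spots formed 27 and 45 touching groups with at most 8 and 6 spots, and 19 of 49 and 26 of 85 had no rich neighbour. Spread of RNA between neighbouring spots moves with such values and was not tested. The 5 genes fell from 2634 CPM in rich spots to 760 CPM at the next spots, 603 CPM at a distance of 2 and 332 CPM at 3 or more in the E13.5 liver, and from 2178 CPM to 665, 552 and 505 CPM in the E14.5 liver. No spot at a distance from the rich spots could itself be rich, so the choice set the first of these steps. Platelet granule genes were not used to choose spots, but they rose with the 5 genes, so their first step follows in part from the choice. They stood at 1432, 492, 416 and 287 CPM and at 1205, 463, 419 and 368 CPM over the same distances. Stellate genes ran the other way, from 699 CPM in rich spots to 1558 CPM at 3 or more spots in the E13.5 liver and from 479 to 879 CPM in the E14.5 liver.

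The contrast above did not use the cross livers, and a test was made in them, though the gene lists were drawn up with earlier results of these data known. Rich spots were again selected on the 5 genes, among liver spots, where hepatocyte genes took 0.5% of UMIs or more, because these sections also held tissue outside the liver. This gave 219 rich spots in wild type 2, 24 in wild type 4, 208 in knockout 2 and 38 in knockout 4. Median UMIs of rich and comparison spots were 9382 and 8709, 75161 and 63899.5, 5048.5 and 5206, and 28014 and 31153. In the shallow sections a rich spot could thus rest on as few as 3 UMIs of the 5 genes. Counts were summed by section and class and compared by edgeR's quasi-likelihood test with section as a block, the 5 genes left out. Since the classes were again ranked on megakaryocyte genes, a rise of other megakaryocyte genes follows in part from the choice. For such genes the p-values set the size of the contrast against variation between sections, estimated in part over all genes. They do not measure how alike the sections were. Each SE given below was derived from the log2 ratio and the test statistic and is not a spread over sections.

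Of 12112 genes compared, 428 (3.53%) were higher and 322 (2.66%) lower in rich spots at a Benjamini-Hochberg adjusted p under 0.05 in this edgeR test. Of the 198 tested genes that were higher in both purchased livers 178 (89.9%) rose, 0 fell and 196 had the same sign. Outside the megakaryocyte lists, 133 of 152 rose. Of the 53 that were lower in both purchased livers 35 fell, 0 rose and 51 had the same sign. Over all genes 3.53% rose and 2.66% fell. Without the section block 59 genes were higher and 0 lower, and DESeq2 called 247 higher and 59 lower. With all spots under tissue, tissue outside the liver included, 76 were higher and 120 lower. Lower calls numbered 116 without wild type 4, 205 without knockout 4 and 128 without edge spots.

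Of the 61 megakaryocyte list genes 53 rose and 0 fell in the cross livers, with a median log2 ratio of 1.36 beside -0.01 over all genes. By role, 9 of 10 adhesion receptors, 11 of 11 granule genes, 10 of 10 cytoskeletal genes, 18 of 19 signalling genes and 5 of 11 transcription factors rose. In the edgeR test Itgb3 had a log2 ratio of 3.21 (SE 0.08, adjusted p = 4.65e-24) and Thbs1 one of 2.88 (SE 0.08, adjusted p = 9.85e-24). Alox12 had the largest edgeR log2 ratio of the lists, 3.26 (SE 0.13, adjusted p = 1.76e-18). Cd226, Itga2 and Selp, under the minimum in the purchased livers, rose as well, by 1.87, 1.75 and 1.62 in log2. All 15 genes with the largest ratios in the purchased livers rose, with log2 ratios from 2.03 for Kcna3 to 3.26 for Alox12.

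Pear1 (log2 ratio 0.66, edgeR adjusted p = 0.064) was the adhesion receptor that did not pass, and the ADP receptor P2ry12 (0.18) the signalling gene. Srgn and Jak2, short of 1.5-fold in the purchased livers, rose by 0.86 and 0.39 in log2. Fli1 again led the transcription factors with a log2 ratio of 1.35 (SE 0.18, edgeR adjusted p = 1.72e-06). Runx1 and Mef2c rose by 0.59 and 0.55, and Gfi1b and Nfe2 by 0.30 and 0.26. Gata1 had a log2 ratio of 0.22 (edgeR adjusted p = 0.1), from 195 against 214 CPM in wild type 2, 385 against 288 CPM in wild type 4, 291 against 281 CPM in knockout 2 and 362 against 300 CPM in knockout 4. Its groups overlapped. The adjusted p of Etv6, Tal1, Zfpm1, Mecom and Gata2 also missed the threshold.

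**Figure D4:**
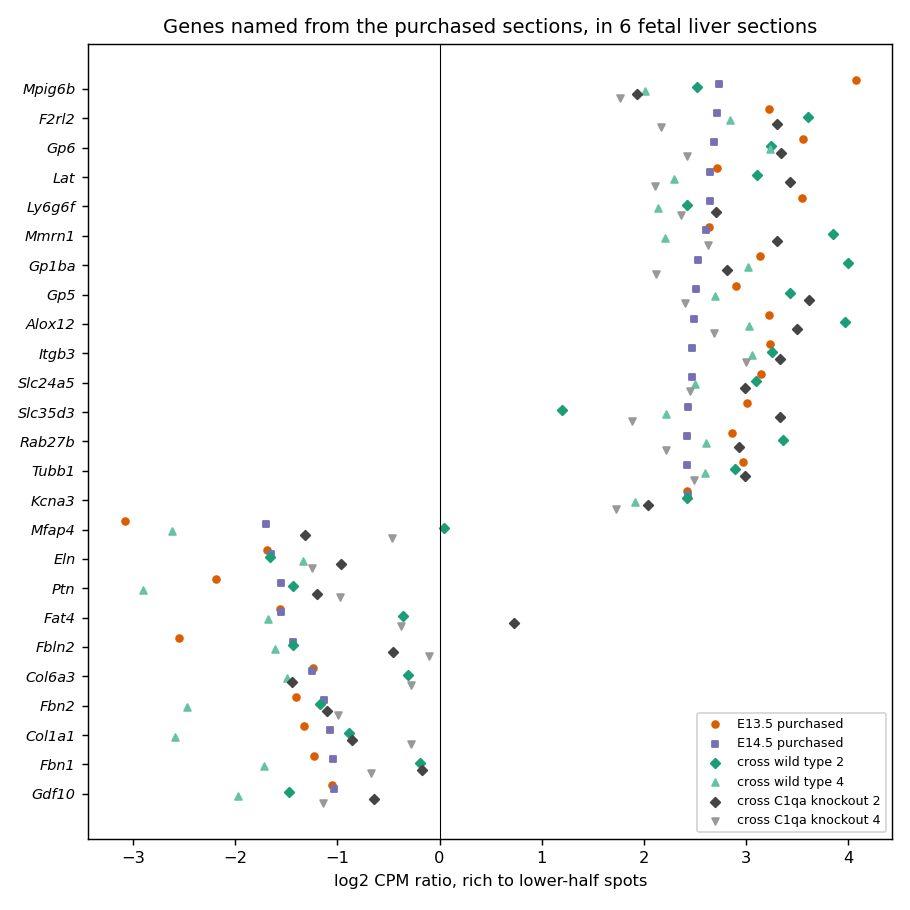
Log2 CPM ratio of rich to comparison (lower-half) spots in each of 6 fetal livers for the 15 genes with the largest and the 10 with the smallest ratio in the weaker purchased section; each point is 1 section. All points of the 15 genes lie above 0, whereas the 10 lower genes spread widely, with Fat4 and Mfap4 on either side of 0.

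The neighbouring lineages were also read in the cross livers, where 3.53% of all genes rose and 2.66% fell. None of 20 erythroid progenitor genes and none of 14 cell cycle genes passed, and of 17 erythroid genes 2 rose, among them Slc4a1 (log2 ratio 0.25). Of 19 C1q+ macrophage genes 5 rose, namely Fcna, Cd5l, Hmox1, Marco and Ctsd, of which Cd5l had 0.63 and Marco 0.47. The summed list had log2 ratios of 0.13 in wild type 2, 0.04 in wild type 4, 0.16 in knockout 2 and 0.17 in knockout 4. Levels of Cd5l in rich and comparison spots were 244 and 222 CPM in wild type 2 and 36.4 and 12.7 in wild type 4. In knockout 2 they were 239 and 167 CPM, and in knockout 4 39.4 and 16.4 CPM. The difference in Cd5l held within each section and the sections overlapped. Neutrophil and primary granule genes rose too, 5 of 10 and 5 of 9, with Mpo, the myeloperoxidase gene, at a log2 ratio of 0.51. Their summed ratios were not alike over sections. Neutrophil genes had summed log2 ratios of 0.57, 0.21, 0.42 and -0.39 in wild type 2, wild type 4, knockout 2 and knockout 4.

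Of 18 genes of other macrophages 3 rose, Tmsb4x (0.92), Coro1a (0.96) and F13a1 (0.95), the same 3 as in the purchased livers. The summed list had log2 ratios of 0.44, 0.53, 0.42 and 0.93 in wild type 2, wild type 4, knockout 2 and knockout 4, whereas its median gene had 0.11. Of the stem cell genes Slamf1, Adgrg1, Esam and Ptprcap rose. Slamf1, a receptor that both stem cells and megakaryocytes carry, had 20.4 against 2.53 CPM in wild type 2, 11.5 against 2.20 in wild type 4, 29.1 against 1.05 in knockout 2 and 11.0 against 3.92 in knockout 4. Pdgfb (1.81), Tgfb1 (0.98) and the chemokine receptor gene Cxcr4 (0.64) rose among the supporting factors, while Tgfb3 and Pdgfa fell. Angpt1 had almost no counts in these libraries and was not compared. None of 18 endothelial, 9 B-lineage, 7 mesothelial and 4 mast cell genes passed, and Clec4g had a log2 ratio of 0.37 (edgeR adjusted p = 0.535). Of the hepatocyte genes Serpina6 fell, and 14 did not pass. Their summed log2 ratios were 0.26 in wild type 2 and 0.27 in knockout 2, but -0.28 in wild type 4 and -0.25 in knockout 4. Of 10 smooth muscle and large vessel genes Vwf and Mylk rose, while Eln and the smooth muscle actin gene Acta2 fell.

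Of 15 stellate and mesenchymal genes 7 fell and 0 rose, with a median log2 ratio of -0.56. Col1a1 fell by 1.04 (SE 0.17, edgeR adjusted p = 5.62e-05), from 295, 639, 471 and 682 CPM in comparison spots to 159, 106, 260 and 561 CPM in rich spots of wild type 2, wild type 4, knockout 2 and knockout 4. The summed list had log2 ratios of -0.50, -1.63, -0.83 and -0.25 in that order, so its size turned on the section. Of 7 tested genes of non-liver embryo tissue 6 also fell, and the 16 listed genes summed to between 15.1 and 53.4 CPM in rich and between 45.6 and 240.5 CPM in comparison spots, with none at 0 in any section. The part of tissue next to the liver in the lower genes was not tested. Fat4, 1 of the 10 lowest in the purchased livers, did not pass (log2 ratio -0.75, edgeR adjusted p = 0.0761).

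**Figure D5:**
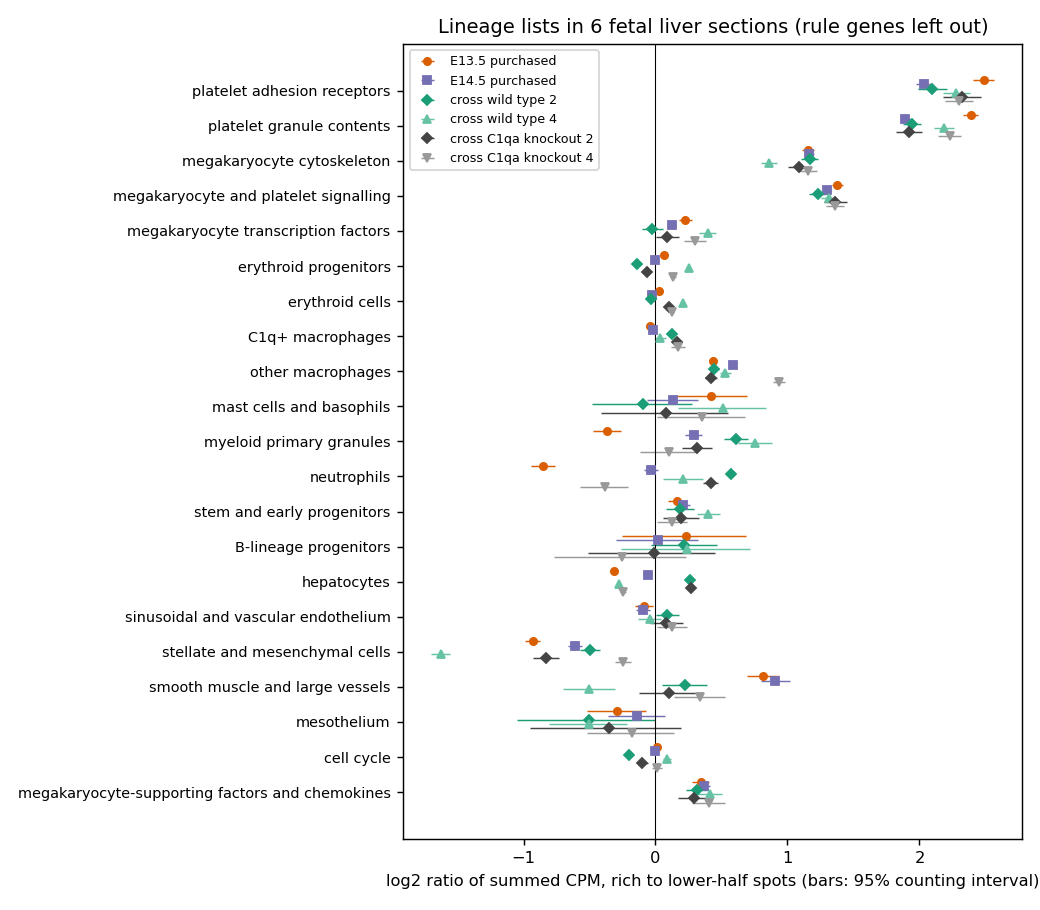
Log2 ratio of the summed CPM of each lineage list, rich to comparison (lower-half) spots, in 6 fetal livers, with 95% counting intervals as bars and 1 point per section. The first 4 megakaryocyte lists lie between 0.86 and 2.49 in all 6 sections, the erythroid and C1q+ macrophage lists between -0.14 and 0.25, and the stellate list between -1.63 and -0.25.

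The contrast of rich with comparison spots was then compared between genotypes. In the edgeR test of the difference, 1 gene (0.00826%) of 12112 passed and 368 had an unadjusted p under 0.05, while DESeq2 called 0. The gene was Ptn, with an edgeR log2 difference of 1.70 (SE 0.28, adjusted p = 0.00256), the knockout contrast being the less negative. Its levels in rich and comparison spots were 3.40 and 9.19 CPM in wild type 2, 30.2 and 225 in wild type 4, 11.2 and 25.8 in knockout 2 and 125 and 244 in knockout 4. With the paired litters as a replicate block on the contrast 19 genes passed, with 1 residual degree of freedom. Leaving out wild type 2, wild type 4, knockout 2 or knockout 4 gave 82, 8, 6 and 0 genes. Of the 61 megakaryocyte list genes none passed the test of the difference, with 2 sections per genotype.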

How the data were processed

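Fetal livers were fixed in formalin, embedded in paraffin and sectioned onto Visium slides. Per the labels, the authors processed the reads with Space Ranger against mm10, and the deposited values are raw UMI counts per gene probe set and spot, not normalized. Steps between reads and counts, such as filters on probes, can differ between the purchased matrices (32589 features, 304 of them marked deprecated, with 0.436% of UMIs) and the cross matrices (19465 features). A probe set captures each gene with its own efficiency, so CPM was compared between spots and not between genes. Each spot mixes several cells, and no cell-type makeup was estimated.

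Spots under tissue with at least 1000 genes were kept, which removed none of the 1345 spots of the purchased livers. In-tissue totals were 38333002 UMIs at E13.5 and 56182915 at E14.5. Counts were summed per class, the 5 genes that chose the spots were left out of sums and totals, and ratios were given with exact conditional 95% counting intervals, which cover counting error only. The purchased livers, 1 section per stage, had no test. The cross livers were tested with edgeR 4.0.16 (quasi-likelihood, TMM, filterByExpr, Benjamini-Hochberg over 12112 genes, section as a block) and, as an alternative, with DESeq2 1.42.0, in R 4.3.3. Both classes came from each section, and sections are separate embryos. Scripts were tested on simulated data.

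In the study a number marks embryos of one dam, 1 of each genotype, so the numbers pair the samples. Deviations of same-numbered sections correlated at 0.73 for levels and 0.09 for the contrast of rich with comparison spots over 12112 genes. Median UMIs per spot were 8715.5 in wild type 2 and 5170 in knockout 2, against 46653.5 in wild type 4 and 28497 in knockout 4. Litter and depth can thus not be told apart in the 0.73. The block for litters is given beside the genotype comparison. The members, gene lists and comparisons were chosen with earlier results of these data known, and some lists share genes. Named are the 5 genes, the members of the 5 megakaryocyte lists above 5 CPM, the 15 genes with the largest and 10 with the smallest ratio in their weaker section, at most 4 members of other lists by mean ratio, and genes that differed by genotype. Some further list members were named after their values were seen, chiefly those that passed the test in the cross livers. Promoter sequence came from RefSeq (GRCm38.p6). Alternatives covered the cut, the ranking genes, depth, the tissue edge, the minimum, scaling, the test and each cross section. Results for some list members are not reported here.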

Additional observations from a re-analysis of the deposited data

Results flagged for a closer look

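The summed erythroid list had a log2 ratio of rich to comparison spots of 0.0273 at E13.5 and -0.0261 at E14.5, opposite in sign. It was -0.04, 0.21, 0.10 and 0.13 in wild type 2, wild type 4, knockout 2 and knockout 4. Genes of myeloid primary granules (Mpo, Elane and Prtn3 among them) had -0.366 at E13.5 and 0.289 at E14.5, and 0.61, 0.76, 0.32 and 0.10 in the cross livers. The difference between stages was not tested for either list, since each stage was 1 section.

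Ptn, which encodes the growth factor pleiotrophin, had a contrast of rich with comparison spots that differed between genotypes by 1.70 in log2 (knockout minus wild type, SE 0.28, edgeR adjusted p = 0.00256). It was lower in rich spots of 6 of 6 livers, and the contrast in wild type 4 (30.2 against 225 CPM) stood apart from those of the other 3 cross livers.

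Spots outside the tissue held 13974472 UMIs at E13.5 and 22312312 at E14.5. The 5 genes took 0.0728% and 0.0630% of them, against 0.0795% and 0.0796% under tissue. Over 5 spots from the tissue, their share was 0.0783% and 0.0650%.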

How the results depend on the processing

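The 201 genes higher in both purchased livers numbered between 159 and 239 under other cuts, rankings, scalings and without edge spots, 84 with a minimum of 20 CPM and 465 with none beyond 1 count in each class. The 53 lower genes numbered 86 for the top 5%, 25 for the top 20%, 26 against all other spots, 31 when ranked without Pf4, 19 after thinning to 5000 UMIs, 24 within 5 strata of UMIs, 21 without edge spots, 6 at 20 CPM and 412 without a minimum. The median log2 ratio of the megakaryocyte lists (1.34, mean of both livers) moved to 1.63, 1.09, 1.15 and 1.42 under the first 4 of these settings, to 1.45 within strata and to 1.47 without edge spots. Of 264 values recomputed for 22 lists, 203 moved by less than the spread of both livers (1 SD), and 61 moved further. This SD rests on 2 livers and ran from 0.0042 for the cytoskeleton list to 1.70 for non-liver embryo tissue. These counts thus depend on how far the 2 livers differed and do not measure stability. The sign changed in 20 of the 264 values, in 6 lists whose ratios lay near 0. They were erythroid cells, erythroid progenitors, cell cycle, C1q+ macrophages, myeloid primary granules and endothelium.

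In the cross livers DESeq2 gave 247 higher and 59 lower genes, and all spots under tissue, which add embryo tissue outside the liver, 76 and 120. Lower genes numbered 211 after thinning, which left out 919 spots of knockout 2 and 213 of wild type 2, and 128 without edge spots, an alternative chosen after seeing the data. Leaving out 1 section gave 295 to 440 higher and 116 to 353 lower genes. With no replicate block 59 were higher and 0 lower. Of the 428 higher genes 240, and of the 322 lower genes 64, held in each of the 4 fits without 1 section. The 1 gene that differed by genotype became 2 with RLE factors, 2 with no filter, 3 without edge spots, 0 with DESeq2, the top 20%, thinning or all spots, 19 with litter as a replicate block, and 0 to 82 when 1 section was left out. The causes of these moves were not tested. Precision was limited by 1 section per stage in the purchased livers and, in the cross livers, by 2 sections per genotype with median depths of 5048.5 to 75161 UMIs per rich spot.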
